A study of Mus musculus with 4 samples.

Results

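Cartilage genes were followed in primary fibroblasts of the C57BL/6 mouse ear, a site where skin lies over elastic cartilage. The 10 genes were Sox9, Col2a1, Acan, Hapln1, Comp, Matn2, Cnmd, Chad, Snorc and Scrg1, found by symbol among 55536 Ensembl genes. They were chosen by read counts, because Cnmd and Col2a1 differed between the states in whole-cell RNA, so the whole-cell comparison describes them and supports nothing about them. Of the 10 genes, 7 had reads and 3 had 0 reads in every library.

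Cells came from ear clippings, were expanded in DMEM with fetal calf serum, spent 48 h in KN93, which blocks a calmodulin-dependent kinase, for cell cycle synchronization, and were then transfected for 24 h. Its states, AF357425-High and AF357425-Low, are named for AF357425, which is a small nucleolar RNA of the C/D box class. The sample characteristics describe the states as overexpression and inhibition, whereas the protocol names gapmers against the RNA or a scrambled control, and the labels do not say which transfection stands behind each state. Each state has 1 library of whole-cell RNA and 1 of RNA recovered with an antibody against fibrillarin, the methyltransferase of C/D box ribonucleoproteins. No difference therefore has a replicate check. The labels do not say whether libraries share cultures or mice.

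Hyaline and elastic cartilage are built by chondrocytes around a network of type II collagen filled with aggrecan, a proteoglycan that holds water. The transcription factor SOX9 switches on the genes of this matrix, and link protein ties aggrecan to hyaluronan. Fibroblasts instead make type I and type III collagen, and ear clippings can carry cells of the cartilage and its perichondrium into culture. In bulk RNA, fewer cells of a type and less RNA per cell cannot be told apart.

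Gene-assigned reads came to 21693030 to 27832061 per library, and levels are given as counts per 1e6 such reads (CPM). AF357425 itself had 0 reads in all 4 libraries, so the states could not be checked by their target. Mitochondrial ribosomal RNA took 59.8% to 63.4% of the pulldown reads and 0.0583% to 0.0926% of the whole-cell reads, which lowers the CPM of other genes in the pulldown. Per the labels, the pulldown libraries were depleted of ribosomal RNA before sequencing. All intervals are exact 95% intervals from the counts unless said otherwise and cover counting error alone: amplified reads that carry no molecular identifiers are not independent molecules. Levels are compared between libraries and not between genes, because no transcript lengths were used.

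The labelled cell type was checked against marker genes, whose reads are given without comparing levels between genes. Col1a1, the main collagen of fibroblasts, had 77328 (AF357425-High) and 84317 (AF357425-Low) whole-cell reads. The cartilage collagen Col2a1 had 1922 and 766 reads there. Chad, which encodes the collagen-binding protein chondroadherin, had 0 reads in all 4 libraries, as did Snorc, a small transmembrane proteoglycan of chondrocytes, and Scrg1, a secreted protein linked to chondrogenesis. Taking 3 reads as the limit that a count of 0 allows, in place of an exact interval, the level could be up to 0.136 CPM (AF357425-High) or 0.138 CPM (AF357425-Low) in whole-cell RNA, and 0.116 or 0.108 CPM in the pulldown.

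A listed 0 is not always informative in these tables. Chad lies wholly inside the span of Acsf2 on chromosome 11 (94565047 to 94569127), so its reads may not be assignable to it. Around Snorc and Scrg1, 10 and 8 of the 10 nearest protein-coding genes had reads. By contrast, the cartilage collagen Col11a2, which is not among the 10, is listed at 0 within a stretch where none of the 10 nearest protein-coding genes had a read, the broadly expressed Brd2 and Ring1 included, and its 0 is not read as a low level.

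Upstream sequence is shown for the genes with reads that have an entry in the RefSeq promoter table (GRCm38.p6). These are the angiogenesis inhibitor Cnmd, the aggrecan gene Acan and the link protein gene Hapln1, and none is a collagen gene. Entries were found for 4 of the 10 genes, Cnmd, Acan, Hapln1 and Chad, and not for Col2a1, Sox9, Comp, Matn2, Snorc or Scrg1. Each run is 5′ to 3′ on the gene's strand, ends before the gene's annotated span, and has motif matches in capitals.
Cnmd, chr14:79662195-79662433, minus strand: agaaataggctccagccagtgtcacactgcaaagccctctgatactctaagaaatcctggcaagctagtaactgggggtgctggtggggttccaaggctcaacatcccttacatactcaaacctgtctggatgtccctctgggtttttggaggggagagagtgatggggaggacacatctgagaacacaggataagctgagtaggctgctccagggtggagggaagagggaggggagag
Acan, chr7:79052976-79053225, plus strand: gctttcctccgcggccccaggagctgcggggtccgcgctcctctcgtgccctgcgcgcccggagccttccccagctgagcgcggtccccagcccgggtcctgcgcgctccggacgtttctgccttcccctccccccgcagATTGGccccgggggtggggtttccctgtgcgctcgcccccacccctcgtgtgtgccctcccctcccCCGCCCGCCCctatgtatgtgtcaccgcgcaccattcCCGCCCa
Hapln1, chr13:89540386-89540528, plus strand: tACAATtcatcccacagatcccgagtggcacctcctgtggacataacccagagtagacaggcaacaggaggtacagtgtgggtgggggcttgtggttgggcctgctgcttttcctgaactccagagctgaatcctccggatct
The motifs searched on both strands were the TATA box TATAAA, the GC box GGGCGG, the CCAAT box CCAAT and the SOX-type cores ACAAT and ACAAAG, of which ACAAT shares the letters CAAT with CCAAT. The Acan window, 250 bases with 74.4% G and C, held 3 GC box matches and 1 CCAAT box, all on the opposite strand. The GC box matches that start at bases 207 and 211 overlap. A GC box occurs in 32.7% and a CCAAT box in 33.8% of 32851 RefSeq windows of that length, which were not matched for G and C. The Hapln1 window of 143 bases held 1 ACAAT, as do 18.0% of windows of that length. The Cnmd window of 239 bases, with 53.6% G and C, held none of these letters, which occur in 12.0% (TATAAA), 31.2% (GGGCGG), 33.0% (CCAAT), 27.0% (ACAAT) and 15.9% (ACAAAG) of windows of that length. These matches describe the letters and not bound sites.

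**Figure D1:**
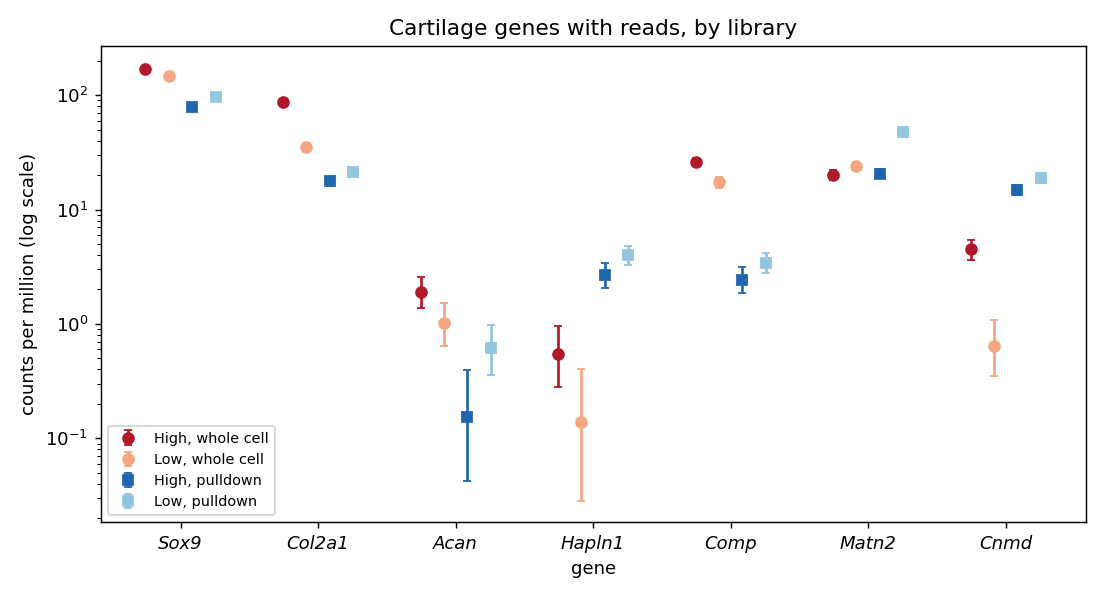
CPM on a log axis for the 7 cartilage genes with reads, in each of the 4 libraries (circles, whole-cell RNA; squares, fibrillarin pulldown); bars are exact 95% counting intervals. Cnmd and Hapln1 are higher in both pulldowns than in either whole-cell library, while Col2a1, Comp and Sox9 are lower in both pulldowns.

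The comparison of the states in whole-cell RNA asks how the cells' transcripts differ between AF357425-High and AF357425-Low, and here it chose the genes. Cnmd and the collagen gene Col2a1 were called higher in AF357425-High. Acan, Comp, Sox9 and Matn2 were not called, with log2 ratios of 0.84, 0.52, 0.12 and -0.32. A gene was called where its whole interval lay beyond 2-fold after scaling by the trimmed mean of M values (TMM). Of the 6 cartilage genes that passed the filter of a mean of 1 CPM, 2 were called higher and 0 lower, against 0.111% and 0.133% of 13519 genes called higher and lower. Because this contrast chose the genes, nothing is read from that count.

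Sox9 (ENSMUSG00000000567; chromosome 11, 112782210 to 112787757, GRCm38.p6) encodes the factor that activates cartilage matrix genes. In AF357425-High it had 3727 whole-cell reads, or 168.8 CPM (163.4 to 174.3), and in AF357425-Low 3219 reads, or 148.4 CPM (143.3 to 153.6). The log2 ratio was 0.12 (0.05 to 0.19). Of its partners in the chondrocyte, Sox6 had 465 and 419 reads and Sox5 17 and 15 reads in the same order. The Sox6 log2 ratio was 0.06 (-0.13 to 0.25), and Sox5 was under the filter.

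Col2a1 (ENSMUSG00000022483; chromosome 15, 97975602 to 98004724), the chain of type II collagen, had 1922 reads for AF357425-High, which is 87.0 CPM (83.2 to 91.0), and 766 reads in AF357425-Low, which is 35.3 CPM (32.9 to 37.9). The fold was 2.36, and the log2 interval of 1.12 to 1.36 lay just beyond the 2-fold line. Its ratio ranked 52 from the top of 13519 genes. The span overlaps the long noncoding RNA gene Gm46536. Acan and Comp likewise overlap the noncoding genes Gm26633 and Gm51533, Hapln1 the pseudogene Gm8546 and Matn2 the protein-coding 9430069I07Rik. These overlaps are of whole spans, and exons were not compared. Without a known strand setting, reads in a shared stretch may not be assignable to either gene.

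The proteoglycan genes had few reads. Acan (ENSMUSG00000030607; chromosome 7, 79053226 to 79115099), the core protein of aggrecan, had 42 reads in AF357425-High against 22 in AF357425-Low, a log2 ratio of 0.84 (0.07 to 1.66). Hapln1 (ENSMUSG00000021613; chromosome 13, 89540529 to 89611832), the link protein, had 12 and 3 reads and did not pass the filter. Its log2 ratio was 1.91 (0.02 to 4.37), so the intervals of both genes reach nearly to 0.

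The adaptor glycoproteins lay on opposite sides of 0. Comp (ENSMUSG00000031849; chromosome 8, 70373548 to 70382066), a thrombospondin-family protein that bridges collagen fibrils, had 572 reads in AF357425-High (25.9 CPM, 23.8 to 28.1) against 374 in AF357425-Low (17.2 CPM, 15.5 to 19.1), a log2 ratio of 0.52 (0.33 to 0.71). Matn2 (ENSMUSG00000022324; chromosome 15, 34306681 to 34436242), a matrilin found in many connective tissues besides cartilage, had 444 reads (20.1 CPM, 18.3 to 22.1) against 520 (24.0 CPM, 22.0 to 26.1), a log2 ratio of -0.32 (-0.50 to -0.13). Neither reached the line.

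Cnmd (ENSMUSG00000022025; chromosome 14, 79637682 to 79662194), whose product chondromodulin keeps blood vessels out of cartilage, had 99 reads in AF357425-High against 14 in AF357425-Low. These are 4.48 CPM (3.64 to 5.46) and 0.645 CPM (0.353 to 1.08). The fold was 6.64, rank 2 of 13519 genes. Cnmd passed the filter on the mean of both libraries, with AF357425-Low alone under 1 CPM. Its relative Tnmd, the tenomodulin of tendon and perichondrium, had 37 and 18 reads and a log2 ratio of 0.95 (0.10 to 1.85). Tnmd was likewise under 1 CPM in AF357425-Low and passed the filter through AF357425-High alone.

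**Figure D2:**
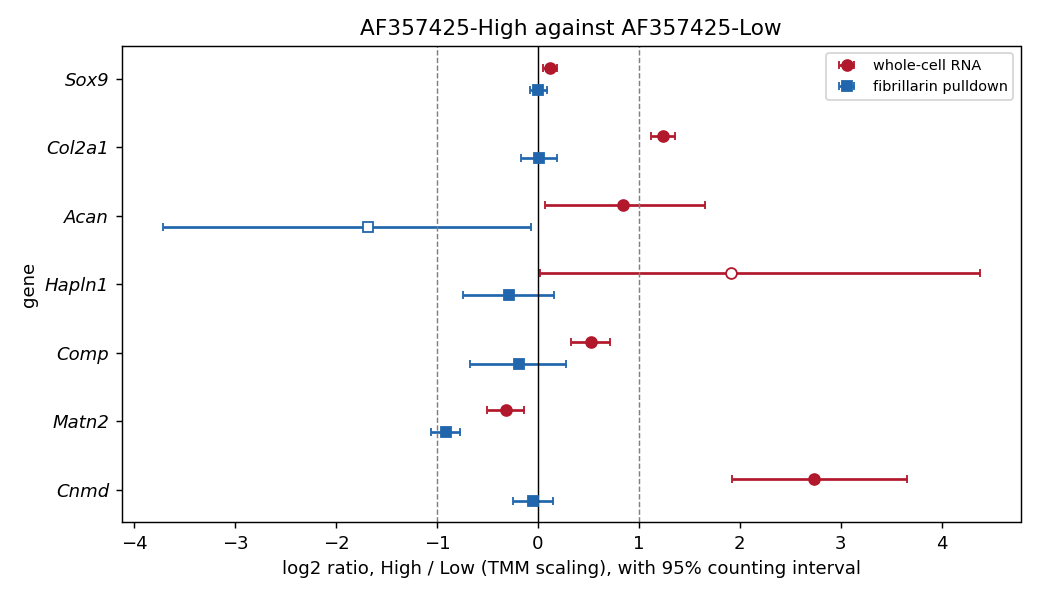
Log2 ratios of the AF357425-High to the AF357425-Low library, for whole-cell RNA (circles) and fibrillarin pulldown (squares), TMM scaling, with exact 95% counting intervals; open symbols mark genes under a mean of 1 CPM and dashed lines 2-fold. In the pulldown the intervals of Cnmd, Col2a1 and Sox9 include 0, and Matn2 is lowest among the filled symbols.

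The pulldown libraries hold the same genes in RNA that the choice did not use, and they ask which transcripts recovered in the pulldown differ between the states. The whole-cell differences of Cnmd and Col2a1 did not recur there. Of the 6 cartilage genes that passed the filter, none was called higher or lower, against 3.43% and 2.9% of 10736 genes. Cnmd had 381 reads (14.7 CPM, 13.3 to 16.3) in AF357425-High and 520 reads (18.7 CPM, 17.1 to 20.4) in AF357425-Low. Its log2 ratio was -0.05 (-0.24 to 0.15), near the median of all genes of -0.01. Col2a1 had 456 reads (17.6 CPM, 16.1 to 19.3) and 597 reads (21.5 CPM, 19.8 to 23.2), with a log2 ratio of 0.01 (-0.17 to 0.19). Intervals of both genes leave out 2-fold in either direction.

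Matn2 had the lowest pulldown ratio of the 6, over a span it shares in part with 9430069I07Rik. It had 533 reads (20.6 CPM, 18.9 to 22.4) in AF357425-High and 1326 reads (47.6 CPM, 45.1 to 50.3) in AF357425-Low. The log2 ratio was -0.91 (-1.06 to -0.77), rank 966 from the bottom of 10736 genes, and it was called lower with library totals (-1.21, -1.36 to -1.06). Scaling by totals moves the median of all genes by -0.29, so part of that value is shared by every gene. Relative to that shift, Matn2 was the cartilage gene with the lowest ratio among the 6 that passed under either scaling.

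The remaining genes had small or wide pulldown ratios. Sox9 had 2023 and 2662 reads and a log2 ratio of 0.00 (-0.08 to 0.09). Comp had 63 and 95 reads and -0.19 (-0.67 to 0.28), and Hapln1 had 69 and 111 reads and -0.29 (-0.74 to 0.16). Acan, with 4 and 17 reads, fell under the filter, and its ratio of -1.69 (-3.72 to -0.07) had the opposite sign to that in whole-cell RNA. With library totals all 7 genes with reads had negative pulldown ratios, from -0.28 for Col2a1 to -1.98 for Acan.

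How far the ratio of pulldown to whole-cell level differs between the states sets the kinds of library against each other. Where every library held 10 reads or more, 2.65% were called higher and 1.66% lower of 11356, by a normal 95% interval on the log scale. Cnmd had -2.78 (-3.61 to -1.95), the rank 11 from the bottom, and Col2a1 had -1.22 (-1.44 to -1.01), and both were called lower. These values share the whole-cell counts that chose the genes and are given as a description. Comp had -0.71 (-1.21 to -0.22), Matn2 -0.60 (-0.83 to -0.36) and Sox9 -0.12 (-0.22 to -0.01). Thus Matn2, lower in AF357425-High in both kinds of library, and Cnmd, apart in whole-cell RNA alone, both had negative changes.

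Pulldown and whole-cell RNA of the same state were compared next, by library totals. The 4 libraries include no control pulldown, so RNA held by fibrillarin cannot be told apart from background recovery or library preparation. Cnmd and Hapln1 were called higher in the pulldown in both states, and Comp was called lower in both by this scaling. Hapln1 in both states and Cnmd in AF357425-Low were under 1 CPM in whole-cell RNA and passed the filter through the pulldown alone, so these ratios are descriptions. The whole-cell counts also entered the choice of the genes. In AF357425-High 2.41% of genes were called higher and 74.1% lower, and in AF357425-Low 2.58% and 62.4%. Calls in both states were made for 1.42% of 12382 genes in the higher and 60.6% in the lower direction. Being lower is therefore near the common case by totals, and the median log2 ratio of all genes was -2.15 in AF357425-High and -1.75 in AF357425-Low.

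Cnmd had 4.48 CPM in whole-cell RNA and 14.7 CPM in the pulldown of AF357425-High, and 0.645 and 18.7 CPM in AF357425-Low. The folds were 3.29 (log2 1.72, 1.39 to 2.05) and 29.0 (4.86, 4.10 to 5.74). The pulldown levels of both states were thus above both whole-cell levels, and the states' folds differed mainly through the whole-cell counts. Hapln1 had 0.543 and 2.67 CPM in AF357425-High and 0.138 and 3.99 CPM in AF357425-Low. Its log2 ratios were 2.30 (1.40 to 3.32) and 4.85 (3.27 to 7.15), the latter resting on 3 whole-cell reads.

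Apart from Matn2, the other cartilage genes with reads had lower pulldown than whole-cell levels by totals. Acan, Col2a1 and Sox9 were called lower in AF357425-High, as were 74.1% of the genes measured there. Acan had 0.155 CPM in that pulldown and passed the filter through whole-cell RNA alone, so its call is a description. Matn2 had log2 ratios of 0.04 (-0.15 to 0.22) in AF357425-High and 0.99 (0.84 to 1.14) in AF357425-Low. Col2a1 had -2.30 (-2.45 to -2.16) and -0.72 (-0.88 to -0.56), and Sox9 -1.11 (-1.19 to -1.03) and -0.63 (-0.71 to -0.56). Comp had -3.41 (-3.81 to -3.03) and -2.34 (-2.68 to -2.01). Acan had -3.62 (-5.56 to -2.16) in AF357425-High, and in AF357425-Low it was under the filter at -0.73 (-1.74 to 0.25). Against the medians of all genes, Col2a1 lay close to the median in AF357425-High and above it in AF357425-Low, whereas Comp lay below it in both.

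Scaling bears on these ratios. With totals that leave out mt-Rnr1 and mt-Rnr2, Cnmd had 3.17 and 6.17 and Hapln1 remained called higher in both states, while Comp, at -1.96 and -1.02, was called lower in AF357425-High alone. Matn2, at 1.49 and 2.30, was then called higher in both states, which made 3 genes. Acan (-2.17) and Col2a1 (-0.85) lost their lower calls in AF357425-High, and Sox9 turned to 0.34 there. In AF357425-Low, Col2a1 turned to 0.59 and Sox9 to 0.68. The same calls were made with TMM and with totals without the 20 most abundant genes. The counts do not separate exon from intron reads. Reads assigned to no gene made up 24.9% to 25.7% of fragments in whole-cell RNA and 6.57% to 8.90% in the pulldown, and ambiguous ones 1.05% to 1.09% and 8.54% to 9.38%. The part of these differences in the ratios was not tested.

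**Figure D3:**
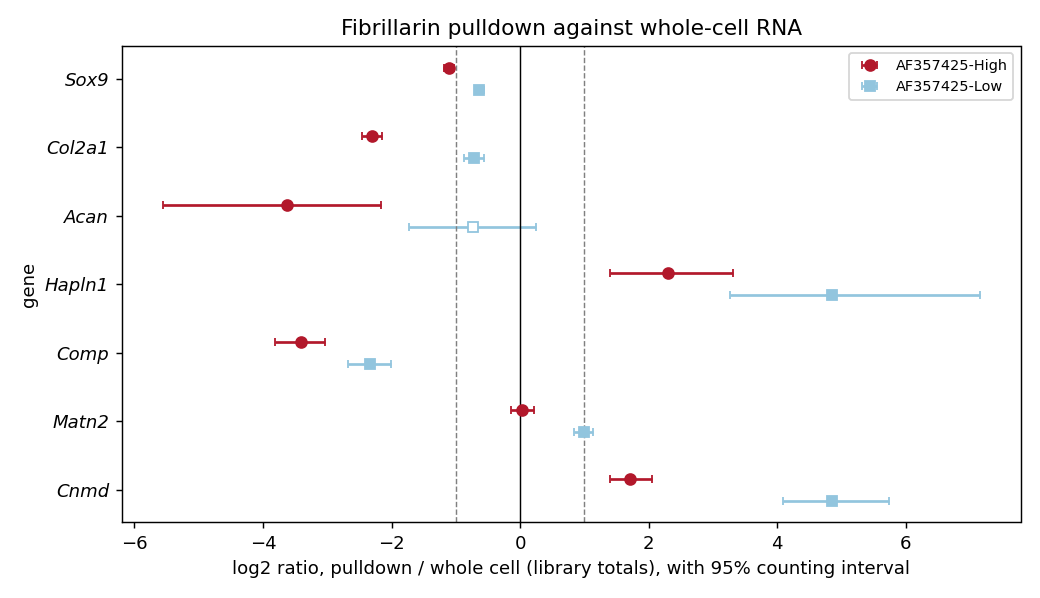
Log2 ratios of the pulldown library to the whole-cell library within each state, scaled by totals, for AF357425-High (circles) and AF357425-Low (squares), with exact 95% counting intervals; the open symbol is under a mean of 1 CPM and dashed lines mark 2-fold. Cnmd and Hapln1 lie beyond 2-fold on the right in both states, and Comp on the left in both.

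Other genes of cartilage were read from lists written with earlier results of these data known. Of 23 further cartilage matrix genes, 10 were measured in whole-cell RNA and 0 were called, against 0.111% higher and 0.133% lower of all genes. Log2 ratios were positive for 9 of the 10 measured, and the median was 0.46. Of all 13519 genes, 48.2% were positive and the median was -0.01. Fmod, Col9a3, Col11a1, Col10a1, Prelp and Timp3 are given as examples chosen after their values were seen. Fmod, the collagen-binding fibromodulin, had 3028 reads in AF357425-High against 1576 in AF357425-Low (log2 0.85, 0.76 to 0.94). Col9a3, a chain of the type IX collagen that coats type II fibrils, had 35 and 17 reads (0.95, 0.08 to 1.88). With 0.784 CPM in AF357425-Low, Col9a3 passed the filter through AF357425-High alone, and it is among the 9 positive genes. Col11a1, which nucleates cartilage fibrils, had 4503 and 3041 reads (0.48, 0.41 to 0.54). Versican (Vcan), the aggrecan relative of fibroblasts, had 24466 and 19758 reads (0.22, 0.19 to 0.24), and Prelp, a leucine-rich matrix protein, 6862 and 5990 reads (0.11, 0.06 to 0.16).

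In the pulldown the same list was mixed, with 5 of 8 measured positive, a median of 0.15 and 1 gene called lower, against 2.9% of all genes. That gene was Col27a1, a fibrillar collagen of cartilage, with 59 reads in AF357425-High against 282 in AF357425-Low (-1.86, -2.29 to -1.45), although its whole-cell ratio was 0.44 (0.27 to 0.60). Col10a1, the collagen of hypertrophic cartilage, had 69 and 42 reads (1.12, 0.54 to 1.71), and Prelp had 0.83 (0.78 to 0.87). Family relatives of the 10 genes varied too. Tnmd had 37 and 101 reads (-1.05, -1.63 to -0.49), and Thbs1, a relative of Comp, had 66745 and 37318 reads and was called higher (1.24, 1.22 to 1.26), but not with library totals (0.94). Hapln4 had 0 and 25 reads in the pulldowns against 54 and 37 whole-cell reads. Matn4 had 29 and 45 pulldown reads and 123 and 76 whole-cell reads, with a whole-cell ratio of 0.60 (0.18 to 1.04). Matn3 had 3 and 21 reads in the pulldowns, and Sox8 10 and 29. Of the other thrombospondin genes, Thbs2 had a pulldown ratio of -0.26 (-0.37 to -0.15) and Thbs3 of -0.43 (-1.11 to 0.23), while Thbs4 had 44 and 55 whole-cell reads and 2 and 1 in the pulldowns. Hapln3 had 11 and 4 whole-cell reads and 0 in both pulldowns.

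Chondrogenic factors and signalling genes were centred near 0 in whole-cell RNA, with 12 of 22 measured positive and a median of 0.03. None was called, against 0.111% of all genes called higher and 0.133% lower. The most abundant were Ccn2, a matricellular growth factor, at 0.23 (0.21 to 0.25), and the transcription factor gene Zbtb20 at -0.18 (-0.21 to -0.15). In the pulldown their median was -0.13 over 17, and Fgf18, a growth factor of cartilage, was called higher with 44 reads against 15 (1.95, 1.08 to 2.91), against 3.43% of all genes. Fgf18 had 0.539 CPM in AF357425-Low and passed the filter through AF357425-High alone. Enzymes that build and sulfate chondroitin chains had medians of 0.01 over 21 measured and -0.12 over 20. The xylosyltransferase gene Xylt2, which starts the chains, was called higher in the pulldown with 114 reads against 52 (1.53, 1.05 to 2.04). With library totals neither call held, at 1.66 (0.79 to 2.61) for Fgf18 and 1.24 (0.75 to 1.74) for Xylt2.

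Elastic fibre genes, which give ear cartilage its spring, had medians of -0.15 over 14 measured in whole-cell RNA and 0.00 over 15 in the pulldown. No elastic fibre gene was called, against 0.111% of all genes higher and 0.133% lower in whole-cell RNA. In the pulldown these shares were 3.43% and 2.9%. Fbln2 had -0.40 (-0.41 to -0.39) in whole-cell RNA and Lox, the enzyme that cross-links elastin and collagen, 0.00 (-0.02 to 0.02). Elastin (Eln) itself, named here after its values were seen, had 22 and 7 whole-cell reads, under the filter (1.56, 0.28 to 3.03). In the pulldown Eln had 27 and 80 reads and a ratio of opposite sign (-1.17, -1.85 to -0.52). Matrix turnover genes had medians of -0.14 and 0.10 over 17 measured in each kind. Has3, a hyaluronan synthase, was called lower in the pulldown with 6 reads against 50 (-2.66, -4.17 to -1.44), but with 0.232 CPM in AF357425-High it passed the filter through AF357425-Low alone. Timp3, an inhibitor of matrix proteases, had -0.12 (-0.14 to -0.11) in whole-cell RNA and 0.30 (0.28 to 0.32) in the pulldown.

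**Figure D4:**
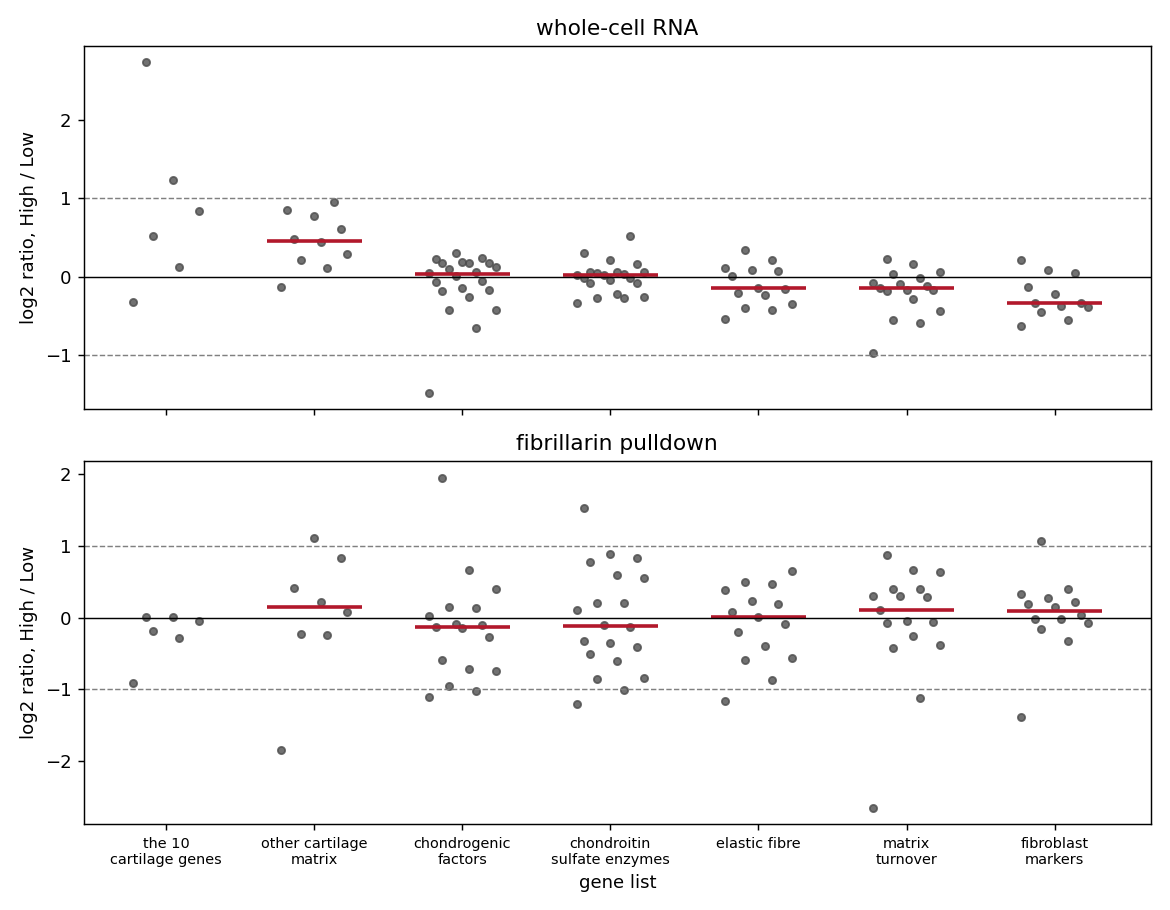
Log2 ratios of the states (AF357425-High to AF357425-Low) for each measured gene of the 10, of the cartilage-related lists and of fibroblast markers (points), in whole-cell RNA above and in the fibrillarin pulldown below; red bars are list medians (none is drawn for the 10 chosen genes), the solid line is the median of all genes and dashed lines mark 2-fold. In whole-cell RNA the points of the other cartilage matrix list centre on 0.46 and those of fibroblast markers on -0.34.

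Fibroblast markers had negative whole-cell ratios for 9 of 12 measured, with a median of -0.34, and positive pulldown ratios for 8 of 14, with a median of 0.09. None was called in either kind, where the shares of all genes were 0.111% higher and 0.133% lower (whole-cell RNA) and 3.43% and 2.9% (pulldown). Their summed level was 10501 CPM in AF357425-High and 12005 CPM in AF357425-Low, with 0 of 15 genes at 0. Col1a1 had -0.22 (-0.23 to -0.20) and Vim -0.37 (-0.39 to -0.36). Bone markers summed to 6684 and 7420 CPM, nearly all from Spp1 and Sparc, with Bglap at 0. Tendon and perichondrium markers summed to 19509 and 17493 CPM, mostly Thbs1, with Kera at 0. Their part in the cartilage values was not tested.

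Markers of other cells of the ear were low. In whole-cell RNA of AF357425-High and then AF357425-Low, Schwann cell and melanocyte markers summed to 16.1 and 13.3 CPM, with 5 and 4 of 15 at 0 and Sox10 at 2 and 0 reads. Keratinocyte markers summed to 8.15 and 8.57 CPM (6 and 3 of 11 at 0), with Krt14 at 0 in both. Skeletal muscle markers summed to 5.80 and 4.43 CPM (6 and 5 of 10 at 0), with Myod1 at 0 in both. Adipocyte markers summed to 9.15 and 7.88 CPM (0 and 1 of 7 at 0), endothelial markers to 8.06 and 8.21 CPM (0 and 1 of 7) and leukocyte markers to 10.7 and 10.5 CPM (6 of 11 in both). The leukocyte marker Aif1 is listed at 0 where none of the 10 nearest protein-coding genes had a read. As for Col11a2, its 0 is not read as a low level.

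Genes with the most similar pattern over the 4 libraries were found by the distance of centred log2(CPM + 0.5) among 12795 genes with a mean of 1 CPM. Nearest to Cnmd were the interleukin-1 receptor antagonist Il1rn (distance 0.78 log2 units), the collagen Col14a1 (1.01), the mitochondrial mt-Co3 (1.06), the imprinted RNA H19 (1.09) and the small proteoglycan gene Ogn (1.14). All 5 were higher in the pulldowns than in whole-cell RNA, which follows from their choice by likeness to Cnmd. Il1rn, for instance, had 178 and 76 whole-cell reads and 751 and 1120 pulldown reads. Nearest to Col2a1 were Wdr66 (0.26), Rsg1 (0.31), Tmem200b (0.34), Plb1 (0.35) and the growth factor binding protein gene Igfbp2 (0.35). Igfbp2 had 3171 and 1259 whole-cell reads and 889 and 821 pulldown reads, whereas the other 4 had at most 19 reads in a pulldown.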

How the data were processed

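RNA was measured in 4 libraries, 1 in each group. The authors deposited raw gene counts, in 1 table for whole-cell RNA and 1 for the pulldowns. Per the submitters' processing notes, cutadapt 2.4, STAR 2.6.0c, HTSeq 0.9.1 and StringTie 1.3.4 were used with GRCm38. The annotation and the strand setting were not given in the sources used here. Counted lines that name no gene (not assigned, ambiguous, not aligned or not unique) made up 43.8% to 50.0% of fragments and were left out.

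Gene assigned totals were 22082565, 21693030, 25857770 and 27832061 for AF357425-High and -Low whole-cell RNA and then the pulldowns. The states were scaled with TMM (edgeR 4.0.16, R 4.3.3) and the kinds of library by totals. Genes needed a mean of 1 CPM. With 1 library a group no test was run. Ratios have exact Clopper-Pearson 95% intervals, and a call needs the whole interval beyond 2-fold. Code was tested on simulated data. Symbols matched 55450 IDs, and positions are RefSeq GRCm38.p6 spans by symbol.

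The genes and lists were chosen with earlier results of these data known. Named besides the 10 are list genes called in a state comparison, or else the 2 most abundant, family relatives with at least 10 reads in a library, and the 5 nearest patterns. Examples outside this rule were chosen after their values were seen. Alternatives changed scaling (DESeq2 1.42.0 size factors among them), filters and the fold.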

Additional observations from a re-analysis of the deposited data

Results flagged for a closer look

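The aggrecan gene Acan was singled out because its ratio of AF357425-High against AF357425-Low had opposite signs in the kinds of library, with each counting interval off 0. The log2 ratio was 0.84 in whole-cell RNA (42 against 22 reads) and -1.69 in the pulldown (4 against 17 reads), where Acan was under the filter. The difference between the kinds was not tested, and Acan had too few pulldown reads for the change of its ratio to be measured under the rule of at least 10 reads. The search covered the 10 genes alone, and the share of all genes with such opposite signs was not counted. Outside the 10, Col27a1 (0.44 and -1.86), Col11a1 (0.48 and -0.24) and Tnmd had them too, so the pattern is not particular to Acan.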

How the results depend on the processing

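No paired analysis was possible because each group has 1 library, and leaving out a library leaves no comparison. In whole-cell RNA, Cnmd and Col2a1 were called higher under each scaling. Both were also called without the filter and at 1.5-fold, but for these genes that was fixed in advance. Dropping the filter leaves their ratios as they were, and an interval beyond 2-fold also lies beyond 1.5-fold. At a mean of 5 CPM, which Cnmd does not reach, 1 gene (Col2a1) was called. Because this contrast chose the genes, none of these calls supports their difference. In the pulldown the count called lower became 1 (Matn2) with library totals and at 1.5-fold. Totals without mt-Rnr1 and mt-Rnr2, chosen for this comparison after seeing the data, gave 0. For pulldown against whole-cell RNA, Comp was the 1 gene called lower in both states, and 0 were with totals without mt-Rnr1 and mt-Rnr2, with TMM and with totals without the 20 most abundant genes. Under these Matn2 joined Cnmd and Hapln1 among genes called higher in both states, making 3. Sox9 in AF357425-High turned from -1.11 to 0.34, 0.73 and 0.49. Of the first 5 lists, the pulldown calls (2 higher, 2 lower) became 0 higher and 5 lower with library totals, adding Papss2, Ptch1 and Wwp2. Pulldown calls over all measured genes moved the same way, from 368 higher and 311 lower with TMM to 238 and 608 with library totals. The shift was therefore not particular to these lists. At a mean of 5 CPM, where fewer genes are tested, the lists had 0 higher and 1 lower. Where no other reason is given the cause was not tested. With a pseudocount of 2, 5 of 5 genes nearest to Cnmd were shared and 1 of 5 nearest to Col2a1. Over single genes, 70 of 116 alternative values stayed within the main interval. A change of filter leaves a ratio as it was, so some of these 70 were fixed in advance. They are 12 without the filter, 8 at a mean of 5 CPM and 5 at 5 reads in each library. Depth limits Acan and Hapln1, with 3 to 111 reads a library.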
